A study of Homo sapiens with 16 samples.

Results

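A431 cells, an epidermoid carcinoma line, were compared between the highest and the lowest YAP1 levels that the study set in them. At the high end, 3 libraries came from cells given an expression vector for YAP5SA, a constitutively active mutant of YAP1, and no siRNA. At the low end, 3 libraries came from cells given siRNA against YAP1 (siYAP) and no vector. These 6 libraries were picked by their labels from the 16 RNA-seq libraries of the series, of which the other 8 were made from HaCaT, an immortalised keratinocyte line. A431 also had 1 library with a control siRNA (siCTRL) and 1 with the empty vector. All cultures were grown in DMEM with 10% FCS, and the siRNA was given 2 times, 24 h apart, with RNA taken 48 h after the second dose. The labels attach this siRNA schedule to the vector libraries too, although they give them no siRNA treatment, so whether those cells were collected on the same schedule is unclear. The promoter of the vector is not given in the sources used here. In the 6 libraries the vector stands with high YAP1 and the siRNA with low YAP1, so the effect of YAP1 and the effect of the delivery cannot be told apart there. The 2 control libraries were therefore used to mark the genes that already differed between empty vector and siCTRL in the same direction, and to describe where between siYAP and YAP5SA the controls lay. They are single libraries, and no result below rests on a test between them.

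YAP1 and its paralogue TAZ, encoded by WWTR1, are co-activators without a DNA-binding domain of their own. They act mainly through the TEAD transcription factors. The kinases of the Hippo pathway, ending in LATS1 and LATS2, phosphorylate YAP1 on serines and hold it in the cytoplasm, and the YAP5SA mutant lacks those serines. In skin, YAP1 and TAZ are nuclear in the basal layer, where the stem cells divide on integrin-bound matrix, and the transcripts examined here cover that programme from the Hippo pathway itself to cell cycle, adhesion, growth and inflammatory genes.

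For 4 of the gene lists described below a promoter element is known as background, and 1 promoter that holds it is printed for each. They were picked because they hold a match, and not every promoter does. RRM2 and MCM10 had no match to the E2F-type site, AURKB none to the CHR-type element, and NT5E and PLOD2 none to the TEAD core. Each runs from 250 bases before to 50 bases after the start of the gene in RefSeq on GRCh38.p14, 5′ to 3′ on the strand of the gene, with matches to a short motif on either strand in capitals. MCM6, a subunit of the helicase that opens replication origins, holds 4 overlapping matches to an E2F-type site (TTTCCCGC, TTTGGCGC, TTTCGCGC or TTTGCCGC), in a pair of identical stretches, each with one word on either strand (chr2:135876394-135876693, minus strand). MAD2L1, a spindle checkpoint gene, holds 1 match to the CHR-type element of mitotic genes (TTTGAA or TTCGAA) close to its start (chr4:120066799-120067098, minus strand). IFI6, an interferon-induced mitochondrial protein, holds 3 matches to the repeat read by interferon-activated factors (GAAANNGAA, chr1:27672143-27672442, minus strand). TGFB2, a transforming growth factor ligand counted among YAP target genes, holds 1 match to the TEAD core (GGAATG, chr1:218345086-218345385, plus strand).
MCM6: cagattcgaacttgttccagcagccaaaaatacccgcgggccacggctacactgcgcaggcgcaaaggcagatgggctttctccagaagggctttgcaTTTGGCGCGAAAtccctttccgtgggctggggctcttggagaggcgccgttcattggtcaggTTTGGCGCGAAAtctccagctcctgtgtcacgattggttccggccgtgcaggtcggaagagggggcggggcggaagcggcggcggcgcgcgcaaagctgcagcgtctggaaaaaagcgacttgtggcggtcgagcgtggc
MAD2L1: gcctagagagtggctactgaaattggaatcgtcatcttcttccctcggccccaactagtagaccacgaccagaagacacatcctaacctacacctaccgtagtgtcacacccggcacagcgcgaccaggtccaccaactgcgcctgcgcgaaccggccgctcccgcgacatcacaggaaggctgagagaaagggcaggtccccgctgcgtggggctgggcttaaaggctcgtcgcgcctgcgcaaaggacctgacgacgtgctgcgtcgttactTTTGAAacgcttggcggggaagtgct
IFI6: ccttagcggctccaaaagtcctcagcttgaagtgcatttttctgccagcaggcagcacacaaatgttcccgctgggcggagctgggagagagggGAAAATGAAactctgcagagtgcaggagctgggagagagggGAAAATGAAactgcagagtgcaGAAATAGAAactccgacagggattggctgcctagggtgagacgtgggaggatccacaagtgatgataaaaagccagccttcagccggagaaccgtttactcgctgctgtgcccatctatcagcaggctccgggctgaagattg
TGFB2: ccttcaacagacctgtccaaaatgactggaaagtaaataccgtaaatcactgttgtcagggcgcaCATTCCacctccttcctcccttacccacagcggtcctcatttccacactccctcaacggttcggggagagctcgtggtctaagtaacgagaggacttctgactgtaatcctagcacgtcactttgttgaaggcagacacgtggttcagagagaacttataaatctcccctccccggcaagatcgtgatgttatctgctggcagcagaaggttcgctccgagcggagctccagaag

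Motif matches were counted in the promoters of every tested gene that had one in the RefSeq table, 10899 in all. The E2F-type site was found in 5.37% of them and in 48.7% of the 39 DNA replication genes with a promoter. The CHR-type element was found in 11.4% of all promoters and in 73.5% of the 34 from mitosis genes. The interferon repeat was found in 6.72% of all promoters and in 62.1% of the 29 from interferon-stimulated genes. The TEAD core was found in 10.8% of all promoters and in 40% of the 15 from YAP target genes, while its share was 11% in the genes called higher with YAP5SA and 11.2% in those called lower. A match describes the letters of the window and is no evidence that a factor bound there.

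Between 19423531 and 46791673 read pairs were assigned to genes in each A431 library, so that 3 counts, the limit that a count of 0 allows, correspond to 0.0641 to 0.1545 counts per M assigned pairs (CPM). This limit covers counting error only. The 14 keratinocyte and epithelial markers were above 1 CPM in every A431 library. The 9 fibroblast markers summed to 12.66–15.78 CPM with siYAP, 6.755–11.01 CPM in the controls and 2.991–5.043 CPM with YAP5SA, and COL1A2 was at 0. The 5 endothelial markers summed to 18.29–22 CPM with siYAP and to 3.892–4.741 CPM with YAP5SA, with 5.928–33.75 CPM in the controls. The 6 blood markers, with HBB at 0, summed to 5.385–7.011 CPM with siYAP and 3.957–4.097 CPM with YAP5SA. The 5 melanocyte markers, with TYR at 0, summed to 46.21–48.77 CPM with siYAP and 39.21–40.02 CPM with YAP5SA. A single gene, MITF, made up most of this sum, at 43.1, 45.5 and 43.4 CPM with siYAP and 36.6, 37.4 and 38.0 CPM with YAP5SA. In bulk RNA, fewer cells of a type and less RNA per cell cannot be told apart, and the part of these markers in any result was not tested.

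YAP1 itself followed the labels. It had 5.32, 6.98 and 5.01 CPM in the siYAP libraries, 94.2 CPM with siCTRL, 124 CPM with the empty vector and 1497, 3254 and 2946 CPM in the YAP5SA libraries. No library of one group reached the level of another group, and the log2 fold change of YAP5SA against siYAP was 8.79 (SE 0.37, FDR = 1.85e-05, edgeR quasi-likelihood test). The count does not separate the mutant transcript from the endogenous one. YAP5SA replicate 1 had the lowest YAP1 level of its group and stood apart from the other YAP5SA libraries across the transcriptome. The SD over genes of its log2 CPM difference was 0.276 from the empty vector library but 0.459 and 0.396 from YAP5SA replicates 2 and 3, which differed from each other by 0.187. In the principal components of the 8 libraries it fell on the empty vector, at 19.07 against 18.94 on the first axis, while replicates 2 and 3 lay at 44.86 and 40.7. At 3691 of the 5569 genes called below (66.3%), YAP5SA replicate 1 was nearer to the empty vector than to the mean of the other 2. Counts are therefore given with and without this library.

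**Figure D1:**
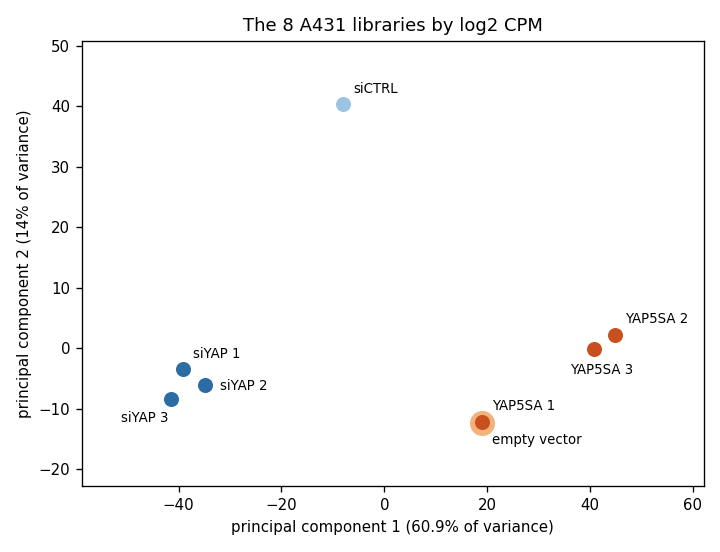
The 8 A431 libraries on the first 2 principal components of log2 CPM, which held 60.9% and 14% of the variance, with siYAP in dark blue, siCTRL in light blue, empty vector as a larger light orange point and YAP5SA in dark orange. YAP5SA replicate 1 and the empty vector lie on the same spot, between the siYAP libraries on the left and YAP5SA replicates 2 and 3 on the right. The siCTRL library lies apart from all others on the second axis.

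Of 14133 genes tested in A431, 5569 (39.4%) passed the test, with an FDR under 0.05 and a mean log2 CPM (logCPM) above 1. There were 3188 genes with a higher level with YAP5SA (22.6% of those tested) and 2381 with a lower one (16.8%). Of these, 722 and 538 differed by at least 1 on the log2 scale. In 5477 of the called genes the 3 libraries of one group did not overlap the 3 of the other. This was counted only among genes called from the same libraries, and not over all tested genes, so it adds no support to the calls. Without YAP5SA replicate 1 the counts were 3844 higher and 3277 lower, and 5479 of the 5569 genes were called again in the same direction.

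The difference of each gene is the sum of 3 steps, from siYAP to siCTRL, from siCTRL to the empty vector, and from the empty vector to YAP5SA. The middle step lies between the 2 controls and holds no change of YAP1 by design. A called gene was marked where this step had the direction of the whole difference and was at least 0.5 times as large, which applied to 2010 genes (36.1% of those called), 33.1% of the higher and 40.1% of the lower ones. The step from siYAP to siCTRL was the largest in 2630 called genes (47.2%), the step between the controls in 2116 (38.0%), and the step from the empty vector to YAP5SA in 823 (14.8%). The first 2 of these steps both use the single siCTRL library. It stood apart on the second principal component, at 40.35 against -12.3 to 2.162 in all other A431 libraries. A deviation of that library would enter both steps, and its part was not tested. Both controls lay between all siYAP and all YAP5SA libraries, so that the gene was ordered, in 1080 called genes, and 983 of them were not marked, with 690 higher and 293 lower. Leaving out YAP5SA replicate 1 raised the ordered genes to 2623. Marked and ordered genes and largest steps were counted only among called genes, and not over all tested genes. Genes that were not called can meet the same rules, so these shares have no background beside them. Subtraction of the control difference, which rests on 1 library of each control, gave 66 called genes of the 14133 (0.467%), 52 higher and 14 lower. Of these 66, 6 were not called between YAP5SA and siYAP and 4 were called there with the opposite sign. Passing this contrast is therefore not taken as support for any gene, and its values are given in the closing sections only.

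**Figure D2:**
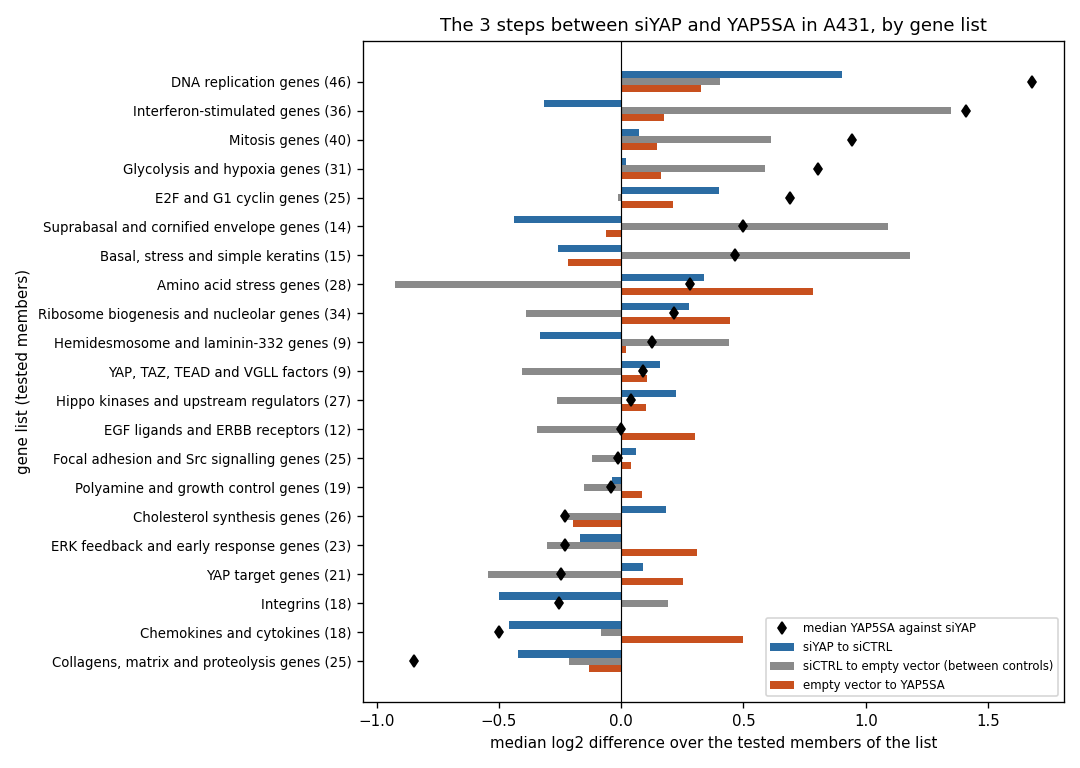
Median log2 difference over the tested members of each of 21 gene lists for the 3 steps between siYAP and YAP5SA in A431 (blue, siYAP to siCTRL; grey, between the controls; orange, empty vector to YAP5SA), with the median of the whole difference as a diamond. The blue bar is the longest for DNA replication genes, at 0.90, and the grey bar for interferon-stimulated genes, at 1.35.

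Over all tested genes 39.4% were called, 22.6% higher and 16.8% lower, which is the background for each gene list below. Of the 21 lists, that of DNA replication genes had the highest share of called members. Of 46 tested, 44 were higher with YAP5SA and 0 lower, and the median log2 fold change was 1.68, beside -0.03 over all tested genes. Of the 2 that did not pass, RFC1 and POLD1, the first loads the replication clamp and the second is a polymerase subunit. Their largest step lay between siYAP and siCTRL, with a median of 0.90, against 0.40 between the controls and 0.33 from the empty vector to YAP5SA. Only 5 of the called genes were marked and 22 were ordered and not marked. The count was 45 higher and 0 lower without YAP5SA replicate 1.

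PCNA, the sliding clamp of replication, had 83.5, 102 and 87.5 CPM with siYAP, 189 CPM with siCTRL, 301 CPM with the empty vector and 304, 451 and 450 CPM with YAP5SA. Its 6 treated libraries did not overlap, with both controls between them (log2 fold change 2.14, SE 0.17, FDR = 0.000113). MCM6, whose promoter is printed above, had 32.6, 36 and 30.5 CPM with siYAP and 116, 160 and 157 CPM with YAP5SA, with 99.1 CPM in siCTRL and 110 CPM in the empty vector. MCM6 thus reached most of its difference at the level of the controls (log2 fold change 2.13, SE 0.14, FDR = 6.85e-05). RRM2, the regulated subunit of ribonucleotide reductase, had the largest ordered rise after YAP1, from 17.5, 22.2 and 19.9 CPM with siYAP to 147, 280 and 262 CPM with YAP5SA. The controls lay in between at 61.8 CPM with siCTRL and 144 CPM with the empty vector (log2 fold change 3.53, SE 0.25, FDR = 7.96e-05). MCM10, which helps to start replication forks, and EXO1, an exonuclease of mismatch repair and recombination, were also ordered and not marked, with log2 fold changes of 2.73 and 2.49. POLE2, a subunit of the leading-strand polymerase, went from 4.82, 5.74 and 5.01 CPM with siYAP to 24.9, 30.3 and 30.2 CPM with YAP5SA (log2 fold change 2.46, SE 0.14, FDR = 4.69e-05), but its empty vector level of 27.8 CPM lay within the YAP5SA range. TYMS, the thymidylate synthase, and TK1, the thymidine kinase, were marked. TYMS had 3.71, 4.02 and 3.28 CPM with siYAP and 23.5, 23.1 and 24.4 CPM with YAP5SA, but already 22.4 CPM with the empty vector against 7.97 CPM with siCTRL.

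Among E2F and G1 cyclin genes, which decide entry into S phase, 16 of 25 tested were higher with YAP5SA and 1 was lower, CDKN1B, an inhibitor of cyclin-dependent kinases. The median log2 fold change was 0.69, and without YAP5SA replicate 1 the counts were 18 and 2. CCNE2, a cyclin partner of CDK2, went from 4.59, 8.04 and 5.81 CPM with siYAP to 29.2, 50.9 and 48.4 CPM with YAP5SA. The groups did not overlap (log2 fold change 2.81, SE 0.27, FDR = 0.000244), and siCTRL stood between them at 17.9 CPM. CCNE1, its close relative, had 2.66, 4.23 and 2.98 CPM with siYAP and 3.45, 5.78 and 4.88 CPM with YAP5SA. These groups overlapped and CCNE1 did not pass (log2 fold change 0.52, SE 0.26, FDR = 0.137), although it did without YAP5SA replicate 1 (0.69, FDR = 0.0271). E2F1, an activating E2F factor, was ordered and rose from 5.26, 13.4 and 9.53 CPM to 34.1, 40.8 and 34.2 CPM, with 27.5 CPM in siCTRL and 32.2 CPM in the empty vector (log2 fold change 1.97, SE 0.29, FDR = 0.00139). CDK2 was ordered as well, at a log2 fold change of 1.02. E2F8, a repressor of the family, and CCND3, a D-type cyclin, were marked. CCND3 had 39.4, 40.8 and 40.5 CPM with siYAP and 39.4 CPM with siCTRL, against 90.1 CPM with the empty vector and 77.2, 85.8 and 85.1 CPM with YAP5SA.

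Mitosis genes were higher with YAP5SA almost as often, in 37 of 40 tested and lower in 0, but with another pattern of steps. Their median log2 fold change of 0.95 was made of 0.07 from siYAP to siCTRL, 0.61 between the controls and 0.15 from the empty vector to YAP5SA. Of the 37 called genes 29 were marked and 2 were ordered and not marked, whereas for DNA replication genes those numbers were 5 and 22. All 40 were called higher without YAP5SA replicate 1. CDK1, the kinase that drives mitosis, shows the pattern, with 168, 169 and 166 CPM with siYAP and 166 CPM with siCTRL. It had 319 CPM with the empty vector and 338, 326 and 351 CPM with YAP5SA (log2 fold change 1.01, SE 0.08, FDR = 0.000105). CDK1 thus had one level in the 4 siRNA libraries and a higher one in the 4 vector libraries. BIRC5 and AURKB, which belong to the chromosomal passenger complex, were split the same way, at log2 fold changes of 1.38 and 1.37 with steps between the controls of 1.08 and 1.12. MAD2L1 was marked and ordered, with 69.4, 73.5 and 71.3 CPM with siYAP, 89.6 CPM with siCTRL, 136 CPM with the empty vector and 149, 150 and 157 CPM with YAP5SA (log2 fold change 1.09, SE 0.08, FDR = 7.96e-05).

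**Figure D3:**
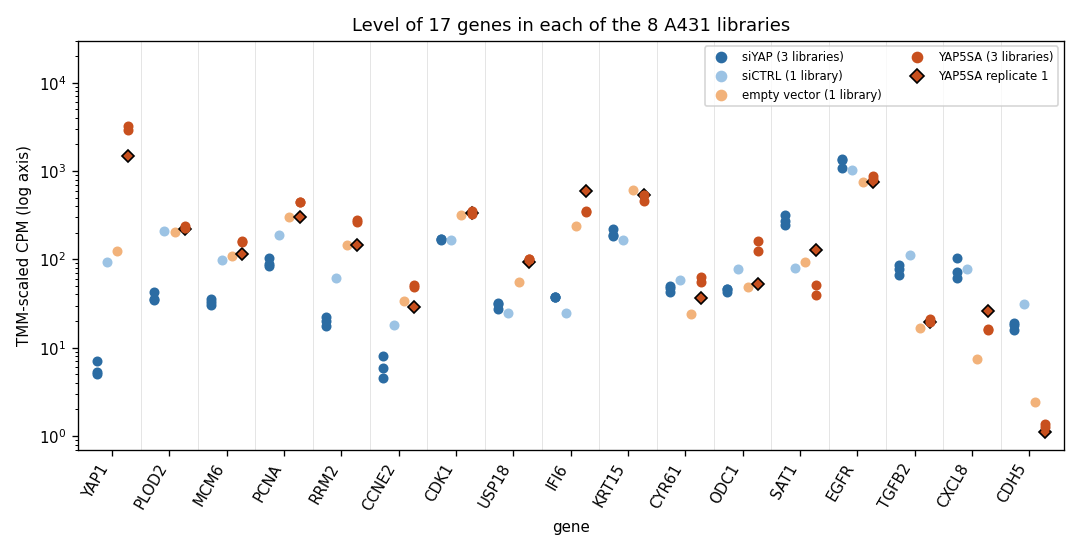
TMM-scaled CPM (log axis) of 17 genes in each of the 8 A431 libraries, 1 point a library, with YAP5SA replicate 1 as a diamond. PCNA, MCM6 and RRM2 climb from siYAP through both controls to YAP5SA, CDK1 and KRT15 have 2 levels that follow siRNA or vector, and CYR61 overlaps between siYAP and YAP5SA.

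Interferon-stimulated genes, the antiviral programme that cells switch on after sensing foreign nucleic acid or interferon, were higher with YAP5SA in 30 of 36 tested. IFIT2, an antiviral RNA-binding protein, was called lower. The median log2 fold change was 1.41, of which 1.35 lay between the controls, while the median step from siYAP to siCTRL was -0.32. Of the 31 called genes 29 were marked and 1 was ordered and not marked. Without YAP5SA replicate 1 the counts were 31 higher and 2 lower, whereas the lower count was 0 without YAP5SA replicate 3 or siYAP replicate 1. IFI6 had 37.4, 37.6 and 37.9 CPM with siYAP, 24.9 CPM with siCTRL, 238 CPM with the empty vector and 600, 356 and 342 CPM with YAP5SA (log2 fold change 3.52, SE 0.22, FDR = 6.68e-05). All libraries with a vector lay above all libraries with siRNA. MX2, an antiviral GTPase, had 14.3, 18 and 13.8 CPM with siYAP against 58.9, 58.7 and 54.1 CPM with YAP5SA, with 3.42 CPM in siCTRL and 21.7 CPM in the empty vector. On the log2 scale the step between the controls, 2.67, was larger than the whole difference of 1.90. USP18, which dampens interferon receptor signalling, had 31.1, 32.1 and 27.2 CPM with siYAP and 25 CPM with siCTRL, against 55 CPM with the empty vector and 94.3, 101 and 100 CPM with YAP5SA (log2 fold change 1.71, SE 0.09, FDR = 4.69e-05). Every YAP5SA library thus lay above the empty vector. OAS3, an enzyme that makes the activator of an antiviral RNase, had a log2 fold change of 1.59, with 1.28 between the controls.

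The YAP target genes that were called went mainly the other way. Of 21 tested, 10 were lower with YAP5SA and 1, IGFBP3, which binds insulin-like growth factors, was higher, and the median log2 fold change was -0.25. Of these 11 genes 8 were marked and 0 were ordered. Over all 21 the median step was 0.09 from siYAP to siCTRL and 0.25 from the empty vector to YAP5SA. Between the controls it was -0.55, so the lower median of the list lay in that step. The counts were 6 higher and 10 lower without YAP5SA replicate 1. TGFB2 had 86.7, 67.0 and 77.3 CPM with siYAP and 112 CPM with siCTRL, against 16.9 CPM with the empty vector and 19.6, 21.3 and 19.4 CPM with YAP5SA (log2 fold change -1.94, SE 0.12, FDR = 6.08e-05). NT5E, the ectonucleotidase CD73, fell from 145, 147 and 138 CPM with siYAP to 65.6, 73.1 and 65.3 CPM with YAP5SA, but both controls lay below the YAP5SA range, at 63.8 and 41.5 CPM. GADD45A, a stress-response gene, and PTPN14, a phosphatase that holds YAP1 back, were lower by log2 fold changes of -0.71 and -0.78, and both were marked. CYR61, a secreted matricellular protein used as a reporter of YAP activity, had 47.3, 42.8 and 49.5 CPM with siYAP and 36.5, 62.5 and 55.1 CPM with YAP5SA. The groups overlapped, and CYR61 did not pass with all 6 libraries (log2 fold change 0.14, SE 0.18, FDR = 0.539) but did without YAP5SA replicate 1 (0.33, FDR = 0.0125). Its controls stood on either side, at 58.3 CPM with siCTRL and 24.4 CPM with the empty vector. CTGF, another standard reporter, had at most 0.298 CPM in any A431 library and was too low to test.

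In the Hippo pathway itself few genes differed by much. WWTR1 had 154, 154 and 159 CPM with siYAP and 139, 154 and 152 CPM with YAP5SA (log2 fold change -0.07, SE 0.08, FDR = 0.491). Of the 9 YAP, TAZ, TEAD and VGLL factors tested, only YAP1 was higher and only VGLL4 lower, and without YAP5SA replicate 1 the counts were 2 and 1. VGLL4, which competes with YAP1 for TEAD, had 36.3, 38.5 and 38.2 CPM with siYAP and 25.3, 21.6 and 24.6 CPM with YAP5SA, next to 34.0 CPM with siCTRL and 20.4 CPM with the empty vector, so it was marked. Of 27 Hippo kinases and upstream regulators 5 were higher and 7 lower, or 44.4% against 39.4% of all tested genes. The higher count was 8 without YAP5SA replicate 1, and the lower count was 3 without YAP5SA replicate 2, 2 without YAP5SA replicate 3 and 4 without siYAP replicate 1 or replicate 3. AJUBA, a LIM protein that restrains LATS kinases, went from 41.0, 47.4 and 45.4 CPM with siYAP to 81.5, 132 and 116 CPM with YAP5SA, with 103 CPM in siCTRL and 72.5 CPM in the empty vector (log2 fold change 1.30, SE 0.17, FDR = 0.000763). MAP4K4, a kinase upstream of LATS, was higher by 0.93 and marked.

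EGFR, the receptor that A431 cells carry in great excess, was lower with YAP5SA. It had 1354, 1082 and 1329 CPM with siYAP, 1030 CPM with siCTRL, 750.5 CPM with the empty vector and 754, 888 and 807 CPM with YAP5SA. The treated groups did not overlap, and EGFR was marked (log2 fold change -0.62, SE 0.12, FDR = 0.00384). Of 12 EGF ligands and ERBB receptors 3 were higher and 2 lower, a share of 41.7% close to the 39.4% of all tested genes, and 3 were higher and 3 lower without YAP5SA replicate 1. TGFA and NRG4, ligands of EGFR and of ERBB4, were ordered and not marked, with log2 fold changes of 0.51 (SE 0.08, FDR = 0.00183) and 1.55 (SE 0.17, FDR = 0.000404). EREG, a further EGFR ligand, was lower by -0.73 and marked. AREG, a ligand known as a YAP target, had 34.1, 28.4 and 31.8 CPM with siYAP and 18.8, 36.9 and 33.6 CPM with YAP5SA. It did not pass (log2 fold change -0.08, SE 0.22, FDR = 0.805). Its controls stood at 33.8 CPM with siCTRL and 16.6 CPM with the empty vector, and every YAP5SA library lay above the empty vector.

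Among 23 ERK feedback and early response genes, which are switched on by growth factor signals, 4 were higher and 9 lower, with 7 of them marked. The counts were 4 and 12 without YAP5SA replicate 1. With all 6 libraries the share called was 56.5%, beside 39.4% of all tested genes. DUSP5, a nuclear phosphatase of ERK, had 380, 311 and 328 CPM with siYAP, 231 CPM with siCTRL, 100 CPM with the empty vector and 128, 79.9 and 81.5 CPM with YAP5SA (log2 fold change -1.82, SE 0.19, FDR = 0.000309). SPRY1, an inhibitor of receptor tyrosine kinase signalling, was lower by -1.50, marked and ordered. MYC, the growth-promoting transcription factor, had 189, 223 and 230 CPM with siYAP and 176 CPM with siCTRL, against 77.7 CPM with the empty vector and 96.1, 122 and 110 CPM with YAP5SA (log2 fold change -0.97, SE 0.12, FDR = 0.00061). PHLDA1, an early response gene, was lower by -0.79 and likewise marked.

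Adhesion genes were mixed in direction. Of 18 integrins tested 1 was higher, ITGA6, and 5 were lower, and without YAP5SA replicate 1 the counts were 2 and 6. Their share of called genes, 33.3%, was below that of all tested genes. ITGA6, the partner of ITGB4 in hemidesmosomes, had 614, 502 and 533 CPM with siYAP, 704 CPM in each control and 734, 993 and 958 CPM with YAP5SA, which made it ordered (log2 fold change 0.70, SE 0.14, FDR = 0.00434). ITGB4 moved in the opposite direction, from 174, 218 and 266 CPM to 144, 144 and 129 CPM, with 118 CPM in siCTRL and 161 CPM in the empty vector (log2 fold change -0.66, SE 0.15, FDR = 0.00793). ITGB5, a subunit that binds vitronectin, and ITGA2, a collagen receptor subunit, were lower by -0.77 and -0.79, the second marked. ITGB1, the common partner of most integrin subunits of keratinocytes, had 1606, 1437 and 1396 CPM with siYAP and 1319, 1524 and 1565 CPM with YAP5SA, and its groups overlapped (log2 fold change -0.01, SE 0.11, FDR = 0.945). ITGA3 overlapped too, at -0.01 (SE 0.14, FDR = 0.971). ITGB2, the leukocyte subunit, had at most 6.19 CPM in any A431 library and passed only without YAP5SA replicate 1 (0.91, FDR = 0.00662).

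Of 9 hemidesmosome and laminin-332 genes 2 were higher and 3 lower, and without YAP5SA replicate 1 the counts were 4 and 3. With all 6 libraries the share called was 55.6%, beside 39.4% of all tested genes. COL17A1, a transmembrane collagen of hemidesmosomes, was higher by 0.79 and marked. Of 25 focal adhesion and Src signalling genes 7 were higher and 8 lower, also without YAP5SA replicate 1. Their share of called genes was 60%. The lower count was 5 without YAP5SA replicate 3 or siYAP replicate 2, and 4 without siYAP replicate 3. TNS3, a tensin, had 61.5, 53.3 and 61.7 CPM with siYAP and 33.1, 30.6 and 33.4 CPM with YAP5SA, with the controls between at 40.8 and 37.6 CPM (log2 fold change -0.86, SE 0.10, FDR = 0.000417). FERMT2, an integrin activator, was lower by -1.04 and marked. SRC had 68.8, 78.0 and 89.0 CPM with siYAP and 69.6, 62.4 and 61.1 CPM with YAP5SA and did not pass (log2 fold change -0.29, SE 0.11, FDR = 0.0677), but it did without YAP5SA replicate 1 (-0.35, FDR = 0.0157), without siYAP replicate 1 (-0.38, FDR = 0.032), and with all libraries where only genes with more than 10 counts in every library were tested (-0.32, FDR = 0.0488). AKT2, a kinase downstream of PI3K, had a log2 fold change of 0.08 (SE 0.13, FDR = 0.638), and CRB3, an apical polarity protein, one of 0.41 (SE 0.19, FDR = 0.113).

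No gene of the collagens, matrix and proteolysis list was higher with YAP5SA. Of 25 tested, 15 were lower, the median log2 fold change was -0.85, and 6 of the 15 were marked. Leaving out YAP5SA replicate 1 gave 17 lower and 0 higher. The sum of fibroblast markers, given above, was lower with YAP5SA as well, and its part here was not tested. LUM made up most of that sum with siYAP, at 12.6, 9.52 and 8.93 CPM against 2.37, 1.52 and 1.64 CPM with YAP5SA. Of the 9 markers 6 were under 1 CPM in every A431 library. MMP2, a gelatinase, had 47.5, 48.5 and 51.0 CPM with siYAP, 28.9 CPM with siCTRL, 21.9 CPM with the empty vector and 22.5, 18.9 and 18.9 CPM with YAP5SA (log2 fold change -1.28, SE 0.11, FDR = 0.000134). COL16A1, a fibril-associated collagen, was ordered, from 9.26, 11.4 and 14.5 CPM with siYAP down to 4.40, 4.47 and 4.54 CPM with YAP5SA (log2 fold change -1.39, SE 0.19, FDR = 0.001). MMP13, a collagenase, had one of the largest marked falls, at 35.2, 44.1 and 32.6 CPM with siYAP, 24.5 CPM with siCTRL, 5.65 CPM with the empty vector and 6.03, 0.697 and 0.948 CPM with YAP5SA. The spread within YAP5SA, with replicate 1 at the level of the empty vector, went with a wide error (log2 fold change -3.92, SE 0.65, FDR = 0.00227). COL4A1, a basement membrane collagen, was lower by -0.92 and TIMP3, a matrix-bound protease inhibitor, by -1.05, both marked. CDH5, a cadherin best known from endothelium, had 15.7, 18.8 and 18 CPM with siYAP and 31.0 CPM with siCTRL, against 2.44 CPM with the empty vector and 1.12, 1.35 and 1.25 CPM with YAP5SA (log2 fold change -3.81, SE 0.16, FDR = 1.85e-05), and made up most of the endothelial sum in the siRNA libraries.

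Of 18 chemokines and cytokines 6 were lower and 1 was higher, IL1RN, the natural blocker of the interleukin-1 receptor. This share of 38.9% lay close to that of all tested genes. Without YAP5SA replicate 1 the counts were 12 lower and 1 higher. CXCL8, which attracts neutrophils, had 103, 61.8 and 72.6 CPM with siYAP, 77.8 CPM with siCTRL, 7.49 CPM with the empty vector and 26.2, 15.7 and 16.4 CPM with YAP5SA. It was lower and marked (log2 fold change -2.04, SE 0.25, FDR = 0.000596), yet every YAP5SA library lay above the empty vector. CCL5, a chemokine for T cells, was ordered and not marked, from 19.6, 26.0 and 22.9 CPM down to 9.09, 7.70 and 6.66 CPM (log2 fold change -1.55, SE 0.17, FDR = 0.000347). CSF2, a growth factor for myeloid cells, was lower by -1.19 (SE 0.25, FDR = 0.00649), but both controls, at 1.81 and 2.57 CPM, lay below the YAP5SA libraries.

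Basal, stress and simple keratins were called higher in 7 of 15 and lower in 0. Their share of 46.7% stands beside the 39.4% of all tested genes, and 6 of the 7 were marked. Without YAP5SA replicate 1 the counts were 7 higher and 2 lower. KRT15, a basal keratin, had 219, 184 and 191 CPM with siYAP and 166 CPM with siCTRL, against 605 CPM with the empty vector and 540, 457 and 534 CPM with YAP5SA (log2 fold change 1.37, SE 0.11, FDR = 0.00012). KRT6A and KRT6B, keratins of stressed and wounded epidermis, were higher by 1.02 and 1.85, and share much of their sequence, so their counts may be split between them. Of 14 suprabasal and cornified envelope genes 5 were higher and 0 lower, with the same counts without YAP5SA replicate 1. Their share of 35.7% was below the 39.4% of all tested genes. Of the 5 called genes 4 were marked, among them SCEL, a cornified envelope precursor. SCEL was higher by 1.67 (SE 0.19, FDR = 0.000487), with a step of 1.94 between the controls.

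Of 34 ribosome biogenesis and nucleolar genes 12 were higher and 1 lower, DDX21, an RNA helicase, which at 38.2% was again near the share of all tested genes. Their median steps were 0.28 from siYAP to siCTRL, -0.39 between the controls and 0.44 from the empty vector to YAP5SA. A control step opposite to the whole difference does not mark a gene. The higher count was 19 without YAP5SA replicate 1 and 5 or 6 without YAP5SA replicate 2, YAP5SA replicate 3, siYAP replicate 1 or siYAP replicate 3, and the lower count lay between 0 and 2. NOP58, a core protein of snoRNPs, had 64.3, 82.0 and 67.7 CPM with siYAP and 108, 178 and 162 CPM with YAP5SA (log2 fold change 1.06, SE 0.18, FDR = 0.0027), and EBNA1BP2, a ribosome assembly factor, also had 1.06 (SE 0.19, FDR = 0.00308). Neither was marked, since both had less RNA with the empty vector than with siCTRL.

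Of 19 polyamine and growth control genes 6 were higher and 2 lower, a share of 42.1% close to the 39.4% of all tested genes. The counts were 8 higher and 3 lower without YAP5SA replicate 1, with 2 or 3 higher when any library but YAP5SA replicate 1 was left out, and 1 lower without YAP5SA replicate 3 or siYAP replicate 3. ODC1, the first enzyme of polyamine synthesis, had 46.6, 46.4 and 43.2 CPM with siYAP, 77.8 CPM with siCTRL, 48.3 CPM with the empty vector and 53.1, 160 and 125 CPM with YAP5SA. Replicate 1 again sat at the empty vector level, and the call (log2 fold change 1.31, SE 0.33, FDR = 0.0135) was lost without siYAP replicate 1 (FDR = 0.0502) or siYAP replicate 3 (FDR = 0.0597). SAT1, which starts polyamine breakdown, had 318, 247 and 274 CPM with siYAP and 129, 39.5 and 51.5 CPM with YAP5SA (log2 fold change -1.93, SE 0.39, FDR = 0.00533), with 79.4 CPM in siCTRL and 92.5 CPM in the empty vector. AZIN2, a regulator of ornithine decarboxylase, was lower by -1.47 (SE 0.38, FDR = 0.0149), a call lost without YAP5SA replicate 3 (-1.16, FDR = 0.0514) or siYAP replicate 3 (-1.33, FDR = 0.0594). AMD1, the next decarboxylase of the pathway, was higher by 0.44. RPTOR, the substrate-binding subunit of mTORC1, overlapped between the groups (log2 fold change 0.22, SE 0.25, FDR = 0.485) and passed only without YAP5SA replicate 1 (0.46, FDR = 0.0296).

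Of the 21 lists, that of amino acid stress genes changed most with a single library. Of 28 tested 4 were higher and 4 lower with all 6 libraries, a share of 28.6% below the 39.4% of all tested genes. The median steps of this list were 0.34 from siYAP to siCTRL, -0.93 between the controls and 0.79 from the empty vector to YAP5SA. Without YAP5SA replicate 1, 21 were higher and 4 lower, and 1 or 2 were higher when any other library was left out. WARS, a tRNA synthetase, was far lower in YAP5SA replicate 1 than in the other 2, with 117, 129 and 104 CPM with siYAP and 208, 542 and 480 CPM with YAP5SA, against 224 CPM with siCTRL and 255 CPM with the empty vector (log2 fold change 1.82, SE 0.31, FDR = 0.00249). ATF3, a stress-induced transcription factor, and NUPR1, a stress-induced chromatin protein, were lower by -1.22 and -2.20, the second marked.

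**Figure D4:**
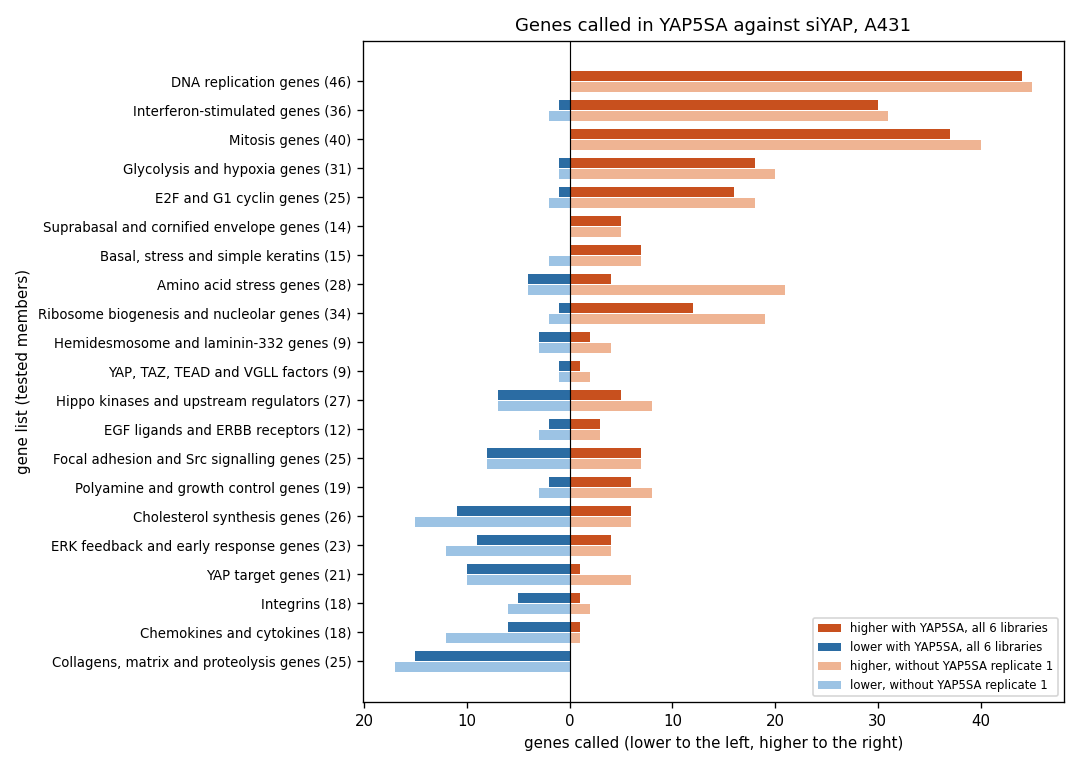
Number of genes called higher (right) and lower (left) with YAP5SA in each of 21 gene lists in A431, with all 6 libraries (dark bars) and without YAP5SA replicate 1 (light bars). The bars of DNA replication, mitosis and interferon-stimulated genes hardly move, whereas amino acid stress genes go from 4 to 21 called higher.

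Among 31 glycolysis and hypoxia genes 18 were higher and 1 lower, ALDOC, an aldolase. The median log2 fold change was 0.80, 13 of the 19 called genes were marked, and without YAP5SA replicate 1 the counts were 20 and 1, while the lower count was 0 when any other library was left out except YAP5SA replicate 2. PLOD2, a lysyl hydroxylase that prepares collagen for cross-linking, stood apart in the siYAP libraries alone. It had 34.6, 43.0 and 35.7 CPM with siYAP against 211 CPM with siCTRL, 203 CPM with the empty vector and 219, 228 and 236 CPM with YAP5SA. Of the log2 fold change of 2.59 (SE 0.11, FDR = 1.85e-05), the step from siYAP to siCTRL made up 2.48. LDHA, lactate dehydrogenase, climbed from 500.3, 485.5 and 447 CPM through 886 and 1295 CPM to 1404, 1566 and 1546 CPM (log2 fold change 1.66, SE 0.09, FDR = 4.83e-05). NDRG1, a hypoxia-induced gene, was higher by 1.62 but had 398 CPM with the empty vector against 163 CPM with siCTRL, and was marked.

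Of 26 cholesterol synthesis genes 6 were higher and 11 lower, 9 of them marked, and 6 were higher without YAP5SA replicate 1 too. The share called with all libraries was 65.4%, beside 39.4% of all tested genes. The lower count was 15 without YAP5SA replicate 1, 6 without YAP5SA replicate 2, 4 without YAP5SA replicate 3 or siYAP replicate 3, 5 without siYAP replicate 1 and 7 without siYAP replicate 2. DHCR7, the last enzyme of one branch of cholesterol synthesis, had 93.3, 110 and 120 CPM with siYAP, 92.2 CPM with siCTRL, 56 CPM with the empty vector and 54.6, 45.7 and 48.7 CPM with YAP5SA (log2 fold change -1.12, SE 0.12, FDR = 0.00032). It was marked, and its controls lay between the treated groups.

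Outside the lists, the ordered and unmarked genes with the largest differences included S100A8, a calcium-binding alarmin of stressed keratinocytes, which had 0.440, 0.584 and 0.199 CPM with siYAP, 1.56 and 2.34 CPM in the controls and 6.81, 3.52 and 4.43 CPM with YAP5SA (log2 fold change 3.52, SE 0.39, FDR = 0.000436). Without YAP5SA replicate 1 its mean level fell under the logCPM limit, while its difference was 3.21. BBC3, a pro-apoptotic BCL2 family gene, was ordered in the other direction, from 7.17, 8.25 and 10.3 CPM to 2.76, 1.23 and 1.67 CPM, with 4.30 and 4.50 CPM in the controls (log2 fold change -2.19, SE 0.30, FDR = 0.000938). FGF19, a secreted growth factor, had 6.50, 8.18 and 8.69 CPM with siYAP, 0.685 CPM with siCTRL, 0.184 CPM with the empty vector and 0, 0.041 and 0.0836 CPM with YAP5SA, where no library had more than 3 counts, so no fold is given. The largest fitted difference among marked genes was that of GH1, the pituitary growth hormone gene of a family of near-identical copies among which reads can be split, which had 0 counts in every A431 siRNA library and 466, 661 and 1002 counts with YAP5SA. Its mean of 25.03 ± 4.3 CPM (SD, n = 3) was at least 162-fold higher than 3 counts in the shallowest siYAP library, but the empty vector library had 660 counts as well. In A431 the GH1 counts thus occurred only in libraries with a vector. GH1 was also called higher with YAP5SA in HaCaT (FDR = 7.71e-07, edgeR quasi-likelihood test). Whether the reads came from the gene of the cells was not tested.

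HaCaT cells went through the same pair of treatments, so it could be asked which differences were shared. In HaCaT 31.5% of 14673 tested genes were higher and 28.5% lower with YAP5SA than with siYAP. The difference between the lines itself passed at 5895 genes (40.2%), of which 2775 had the higher log2 fold change in A431. Of the A431 genes that were higher, ordered and not marked, 687 were measured in HaCaT, where 584 (85.0%) were called in the same direction and 23 (3.35%) in the opposite one. Of 1049 higher and marked genes 721 (68.7%) were called in the same direction and 110 (10.5%) in the opposite one. Of 1437 higher genes that were neither ordered nor marked these numbers were 949 (66.0%) and 166 (11.6%), close to those of the marked genes. The lower genes gave 211 of 279 (75.6%) where ordered and not marked, 542 of 933 (58.1%) where marked and 715 of 1101 (64.9%) where neither. HaCaT has its own single controls, so a delivery effect that both lines share would also be called in both.

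All 46 DNA replication genes were called higher in HaCaT, and 32 of them by more than in A431. All 40 mitosis genes and all 36 interferon-stimulated genes were higher in HaCaT, with medians of 3.27 and 4.49 against 0.95 and 1.41 in A431. Of the 21 YAP target genes 12 were called higher and 4 lower in HaCaT, against 1 and 10 in A431. Without YAP5SA replicate 1 the A431 counts were 6 and 10. Over all genes tested in HaCaT 31.5% were higher and 28.5% lower. In the test of the difference 11 YAP target genes had a lower log2 fold change in A431 and 3 a higher one. CYR61 had a log2 fold change of 5.08 in HaCaT, where it differed from A431 by -4.95 (FDR = 1.23e-06), and AREG one of 4.62 in HaCaT (difference -4.71, FDR = 2.04e-05). TGFB2 had the opposite sign, 2.18 in HaCaT (difference -4.13, FDR = 1.07e-07), and CXCL8 had 5.87 (difference -7.91, FDR = 1.29e-07). The lists of chemokines and cytokines and of matrix genes had medians of 3.74 and 0.97 in HaCaT, against -0.50 and -0.85 in A431. In contrast, KRT15 and SCEL were lower in HaCaT, by log2 fold changes of -2.17 and -2.15, and higher in A431. PCNA (difference -0.52, FDR = 0.0533), CCNE2 (0.09, FDR = 0.89) and YAP1 (-0.44, FDR = 0.518) did not pass the test of a difference between the lines.

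**Figure D5:**
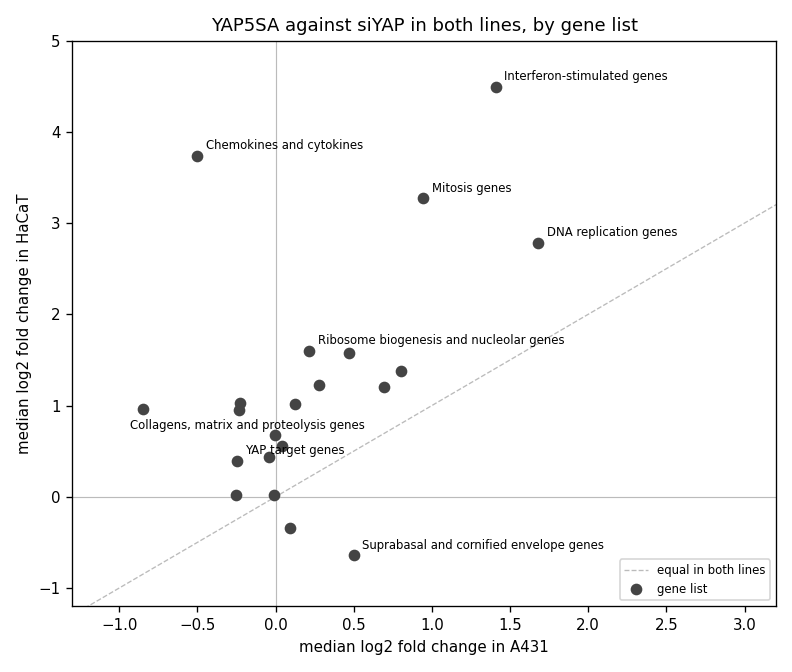
Median log2 fold change of YAP5SA against siYAP for each of 21 gene lists, in A431 (horizontal axis) and HaCaT (vertical axis), with a dashed line where both are equal. Most lists lie above the line, and chemokines and cytokines and matrix genes lie left of 0 in A431 and above 0 in HaCaT.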

How the data were processed

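RNA-seq of 16 A431 and HaCaT libraries was used as 1 table of estimated counts, which the authors deposited unscaled. Paired reads of 100 bp had been cut to 75 bp and assigned by RSEM to gene models of RefSeq, and the authors tested the counts with edgeR. The paper gives RSEM 1.2.21, and the submitters' processing notes give 1.2.11 and hg19. Of 26229 listed genes 28 had date-like symbols, and 17.7% of the values were not whole.

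Groups came from the labels. Expected counts were rounded and fitted in R 4.3.3 with edgeR 4.0.16 (quasi-likelihood test, TMM factors 0.962 to 1.05, prior count 0.125) over the 8 A431 libraries in 4 groups, with 4 residual degrees of freedom. The 14133 genes whose mean count over these libraries exceeded 10 were tested. A gene was called at a Benjamini-Hochberg FDR under 0.05 and a logCPM above 1, as in the paper. SE is the log2 fold change over the square root of F. The line difference was tested over all 16 libraries. The paper states biological triplicates. Each replicate pair differed by more than sampling noise, with a chi-square per degree of freedom from 6.81 (YAP5SA replicates 2 and 3) to 78.5 (YAP5SA replicates 1 and 2). This measure cannot tell separate cultures from separate libraries of 1 culture. An exact permutation test of 3 against 3 cannot go below p = 0.1. The script was tested on simulated data.

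Members and gene lists were chosen with earlier results of these data known. Named genes were YAP1, genes the paper names around RNA-seq, called members of each list with the smallest p (up to 4), the largest ordered, unmarked and marked differences, and the genes with the smallest p between lines. Not all are printed, and some results are not reported here. Genes named as the few exceptions of a list were chosen after their values were seen. Alternatives used DESeq2 1.42.0 and the settings given in the closing section. Promoters and their coordinates are on GRCh38.p14, and were matched by gene name only. Protein sequences were not used here.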

Additional observations from a re-analysis of the deposited data

Results flagged for a closer look

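The contrast of YAP5SA against siYAP was tested for a difference between A431 and HaCaT in all 16 libraries (edgeR quasi-likelihood test of the interaction). Of 84 tested genes named here, 60 differed between the lines at an FDR under 0.05. Over all 14673 genes tested, 5895 (40.2%) did. Some of the named genes were chosen by the smallest p between the lines, so their share is in part raised by the choice. Values are the log2 fold change in A431 minus that in HaCaT, and negative values mean a lower value in A431.

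Among YAP target genes and EGF ligands the difference was -4.95 for CYR61, -4.71 for AREG, -4.13 for TGFB2, -2.34 for NT5E, -3.25 for GADD45A, 0.997 for PTPN14, -4.21 for EREG, -0.84 for TGFA and 2.43 for NRG4. TGFB2, NT5E, GADD45A, EREG and NRG4 were called with opposite signs in the lines. AREG did not pass in A431, and its value there was -0.08 with all libraries and 0.16 without YAP5SA replicate 1. In the Hippo pathway it was 1.62 for VGLL4, -1.43 for MAP4K4 and 0.73 for AJUBA. Early response genes differed by -3.84 for SPRY1, -2.93 for PHLDA1 and -2.34 for MYC, with opposite signs in each.

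DNA replication and G1 genes had smaller differences in A431, by -1.58 for MCM6, -0.74 for POLE2, -2.55 for TYMS, -2.50 for TK1, -2.66 for RRM2, -3.0 for MCM10, -2.58 for EXO1, -3.96 for CCNE1, -2.24 for E2F1, -0.63 for CCND3 and -0.81 for CDK2. The mitosis genes BIRC5, MAD2L1, CDK1 and AURKB differed by -3.07, -2.86, -3.14 and -2.89. Interferon-stimulated genes differed by -3.29 for USP18, -2.86 for OAS3, -3.57 for IFI6, -7.11 for IFI44L and -7.68 for MX2.

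Adhesion and matrix genes differed by -0.87 for ITGA6, -5.27 for ITGB2, -1.04 for ITGB5, -0.86 for ITGA2, -1.77 for FERMT2, -3.44 for COL4A1 and 2.17 for TIMP3. Cytokines differed by -7.91 for CXCL8, -1.63 for CCL5 and -11.4 for CSF2. Keratinocyte genes differed by -5.62 for KRT6B, -3.02 for KRT6A, 3.53 for KRT15 and 3.81 for SCEL. No HaCaT siYAP library had more than 3 counts of CSF2 or KRT6B, so the size of these 2 differences depends on the prior count of the fit.

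Growth, stress and metabolic genes differed by -0.89 for NOP58, -0.74 for EBNA1BP2, -2.50 for ODC1, -1.61 for AMD1, -1.71 for DHCR7, -2.56 for NUPR1, -1.72 for WARS, -3.66 for ATF3, -1.43 for PLOD2, -2.26 for LDHA and -2.10 for BBC3. HaCaT has its own vector and siRNA controls, 1 library each, and the part of the delivery in these differences was not tested.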

How the results depend on the processing

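The main count of 5569 genes was within 1.5 times of itself with DESeq2 (5688), with RLE normalisation (5568), without the filter on low counts (5494), with a minimum of more than 10 in each library (5586), with HaCaT in the fit (5076), with the 6 treated libraries alone (5578) and at an FDR limit alone (6139). It was 1260 where the log2 difference also had to reach 1 in size and 66 after subtraction of the control difference, a contrast that rests on 1 library of each control, with 3571 genes at an unadjusted p under 0.05. Leaving out 1 treated library gave 3769 to 7121 genes. Marked genes, 2010 in the main comparison, numbered 761 where the control difference had to be as large as the whole and 370 where it had to reach 1 on the log2 scale, and 1370 to 2211 with a library left out. Ordered genes, 1080 in the main comparison, numbered 1012 to 2623 with a library left out, the highest without YAP5SA replicate 1. The interaction count of 5895 lay between 5169 and 6266 with 1 of the 12 treated libraries left out, and was 6217 with DESeq2. The replicate numbers did not pair the samples, since same-numbered siYAP and YAP5SA libraries deviated with correlations of 0.028, -0.005 and -0.078, and the replicate block gave 5467 genes and 5712 for the interaction.

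Of the 84 named genes, 76 had the same call under every alternative other than the subtraction. After subtraction of the controls 70 were no longer called, of which 54 kept their direction and 16 changed sign. The reversed log2 values were 0.0776 for VGLL4, 0.79 for TGFB2, 0.11 for EREG, 0.20 for PHLDA1, 0.21 for MYC, 0.15 for ITGA2, -0.32 for COL17A1, -0.15 for CCND3, -0.51 for KRT15, -0.41 for KRT6A, -0.27 for SCEL, 0.15 for TIMP3, 1.34 for CXCL8, 0.20 for NUPR1, -0.46 for IFI44L and -0.77 for MX2. All 16 were marked genes, and the subtraction removes the step between the controls. Depth limits genes near 3 counts, which correspond to at most 0.1545 CPM.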

Other observations

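The 66 genes that passed after subtraction of the control difference were read as a group after their values had been seen. This contrast can pass because of a single control library, and 6 of the 66 genes were not called between YAP5SA and siYAP, so passing it supports none of them. The values of a few follow as a description. They included the small GTPases RAC1 and CDC42, which control the actin cytoskeleton. RAC1 had 231, 221 and 208 CPM with siYAP, 434 CPM with siCTRL, 448 CPM with the empty vector and 506, 508 and 488 CPM with YAP5SA. CDC42 had 224, 220 and 204 CPM with siYAP, 467 and 523 CPM in the controls and 561, 505 and 530 CPM with YAP5SA. In both, the siYAP libraries stood apart from all others. YWHAQ, a 14-3-3 protein, was also lowest with siYAP, at 229, 251 and 214 CPM, but its controls lay further apart. It had 522 CPM with siCTRL, 831 CPM with the empty vector and 873, 923 and 959 CPM with YAP5SA. Its step between the controls was 0.67, against 0.04 for RAC1 and 0.16 for CDC42. SKP2, which marks cell cycle inhibitors for degradation, had 41.2, 46.4 and 40.1 CPM with siYAP, 105 and 86.4 CPM in the controls and 90.0, 122 and 118 CPM with YAP5SA. Among the 14 lower genes, SPP1, the secreted phosphoprotein osteopontin, had 52.7, 39.4 and 38.6 CPM with siYAP against 5.53 and 8.13 CPM in the controls and 9.35, 8.40 and 10.5 CPM with YAP5SA. Each control behind these steps is a single library.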
